A study of Rattus norvegicus with 18 samples.

Results

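The mRNA expression of 7 immediate early transcription factors was followed in the fractured rat femur: Egr1, Fos, Jun, Junb, Atf3, Nr4a1 and Nr4a3. All probe sets annotated to 1 of these symbols were taken, which gave 7 of the 4737 genes named on the array and 19 of its 8799 probe sets. Of these, 17 passed the filter on low signals and were tested among 4669 probe sets; both probe sets that did not pass belong to Nr4a3.

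The samples came from intact female Sprague-Dawley rats. At fracture the young rats were 6 weeks of age, the adult rats 26 weeks and the older rats 52 weeks. The left femur received a steel intramedullary rod and a closed transverse mid-shaft fracture, and the middle part of the shaft was collected after 3 days or 1, 2, 4 or 6 weeks, with callus, cortical bone and marrow together; the no-fracture samples were sham controls drawn from the rats scheduled for surgery. Each of the 18 combinations of age and time is 1 array with RNA pooled from 2 rats, so the 3 ages serve as the replicates of a time and the 5 times after fracture as the replicates of an age. In such whole segments, fewer cells of a type and less RNA per cell cannot be told apart.

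Immediate early genes are transcribed within minutes of a stimulus such as serum, stretch or injury, without new protein synthesis, and their mRNA and protein usually decay quickly. Fos, Jun, Junb and Atf3 are leucine zipper proteins that pair with each other to form AP-1 and related factors; Egr1 is a zinc finger factor induced by serum and by mechanical load; Nr4a1 and Nr4a3 are orphan nuclear receptors of the NR4A family. In bone, AP-1 proteins are known for their part in osteoblast and osteoclast differentiation.

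The sequence before the start of transcription shows some of the elements through which these genes are known to be switched on. RefSeq's promoter table for the GRCr8 build holds 3 of the 7 genes, Egr1, Junb and Nr4a1, and the 250 bases before the listed start were searched on both strands. The motifs searched were the CArG box, bound by serum response factor; the cAMP response half-site CGTCA, which reads TGACG on the other strand; the AP-1 site TGACTCA or TGAGTCA; the EGR site GCGTGGGCG or GCGGGGGCG; and TATAAA. The windows of Junb (chr19:40080876-40081125, + strand) and Nr4a1 (chr7:134259888-134260137, + strand) are given 5′ to 3′ because Junb rose after fracture while Nr4a1 did not pass the test; capitals mark the motifs found.
Junb: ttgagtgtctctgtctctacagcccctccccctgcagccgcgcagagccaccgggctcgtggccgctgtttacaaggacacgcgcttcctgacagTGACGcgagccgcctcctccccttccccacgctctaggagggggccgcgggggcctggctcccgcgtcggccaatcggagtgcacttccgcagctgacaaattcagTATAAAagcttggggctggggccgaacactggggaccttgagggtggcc
Nr4a1: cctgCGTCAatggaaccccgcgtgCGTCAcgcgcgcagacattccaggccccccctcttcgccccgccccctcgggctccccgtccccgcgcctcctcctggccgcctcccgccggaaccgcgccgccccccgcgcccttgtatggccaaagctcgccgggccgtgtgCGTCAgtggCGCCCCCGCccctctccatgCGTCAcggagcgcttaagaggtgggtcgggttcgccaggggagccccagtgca

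Nr4a1 held 4 half-sites CGTCA and 1 EGR site, and Junb held 1 half-site and a TATAAA 49 to 44 bases before its start. Egr1 held 2 CArG boxes, 105 to 96 and 83 to 74 bases before its start, and 2 half-sites CGTCA. Among 33469 promoters of the same length, 1.5% held a CArG box and 7 held 2 or more. A half-site was found in 18.2% of the promoters and 2 or more in 3.98%, an EGR site in 2.85% and TATAAA in 12.9%. None of the 3 windows held the AP-1 site, which 4.05% of promoters did. These matches describe the letters only.

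Across all probe sets tested, principal component 1 (43.4% of the variance) placed the older 1 week array (33.4) within the range of the 3 day arrays (32.5 to 39.5), and the young 6 weeks array (-34.7) within that of the no-fracture arrays (-42.9 to -27.8). The young 6 weeks array also had a Gapdh 5′ to 3′ signal ratio of 0.257, against 0.65 to 0.913 on the other arrays. Its ratio for beta-actin, 0.446, lay inside the range of the other arrays (0.372 to 0.842). The summed signal of 6 bone matrix genes rose from between 21608 and 65959 without fracture to between 69948 and 90096 at 3 days. It lay between 69529 and 122627 at 1 week and within that range at the later times. Bone matrix signal was thus read on every array, though a sum does not show each of the 6 genes.

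At 3 days after fracture, 6 of the 7 genes were up-regulated. Egr1, Fos, Junb and Nr4a3 rose 2.42- to 7.26-fold in their responding probe sets, Jun 2.03- and 2.32-fold in 2 of its 4 and Atf3 2.09-fold, and Nr4a1 did not pass the test in either direction. In all, 12 of the 17 probe sets tested were higher and 0 were lower (limma, adjusted p below 0.05), against 24.5% higher and 19.7% lower of all probe sets tested. The median log2 change was 1.28 over the members and 0.01 over all probe sets tested.

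Egr1 rose at 3 days in 3 of its 4 probe sets. Its brightest probe set (AF023087_s_at) read 1473.3, 1207.3 and 1490.5 in young, adult and older rats without fracture. At 3 days it read 8233.2, 7736.5 and 5660.2, so that every fractured sample lay far above every control. The log2 change was 2.36 ± 0.24 (SE, n = 3 arrays a time), or 5.14-fold (adjusted p = 1.37e-05). A second probe set (M18416_at) rose from 219.9 ± 41.5 to 923.6 ± 338.5 (SD, n = 3), a log2 change of 2.03 ± 0.26. The other responding probe set (rc_AI176662_s_at) rose from 113.6 ± 12.7 to 520.8 ± 122.3, a log2 change of 2.17 ± 0.34. These 3 probe sets followed each other over the 18 arrays, with Pearson's r of 0.92 to 0.96 on the log2 scale. The fourth Egr1 probe set (U75398_s_at) did not follow them (r = -0.28 to -0.23): it read 147.2 to 379.2 without fracture and 156.3 to 245.7 at 3 days, with a log2 difference of -0.15 ± 0.40. Nothing in the files tells why the fourth probe set differs, and a change of Egr1 therefore refers to the other 3.

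**Figure D1:**
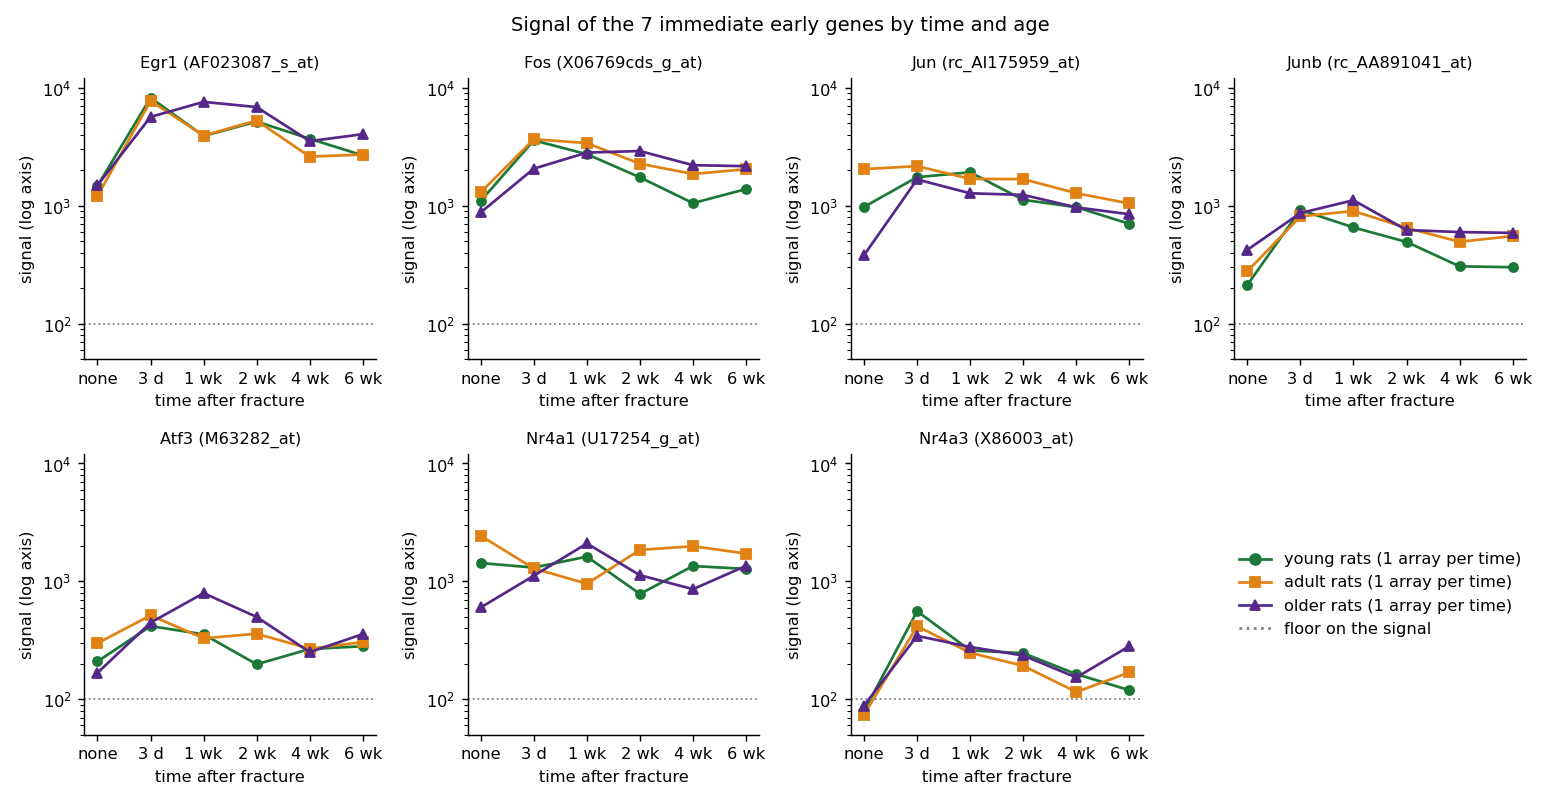
Signal of the brightest probe set of each gene (log axis) against time after fracture, with 1 line per age and 1 array per point; the dotted line is the floor of 100. Egr1, Junb and Nr4a3 are lowest without fracture at every age, and Fos in adult and older but not in young rats (1101.1 without fracture, 1051.2 at 4 weeks), while the older rats' Egr1 reaches its highest point, 7588.6, at 1 week and that of young and adult rats at 3 days.

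Fos, the partner that gives AP-1 much of its inducible activity, had the largest changes of the members at 3 days. Probe set X03347cds_g_at read 263.8, 257.5 and 150.2 in young, adult and older rats without fracture. At 3 days it read 1964.1, 1497.3 and 1020.1, with no overlap between the times. Its log2 change was 2.73 ± 0.37, or 6.65-fold (adjusted p = 6.26e-05). For probe set X06769cds_at the log2 change was 2.86 ± 0.40, and here the older control (32.8) lay under the floor of 100, so that the change is understated. The brightest Fos probe set (X06769cds_g_at) read between 877.4 and 1298.2 without fracture and between 2060.9 and 3662.6 at 3 days, a smaller log2 change of 1.48 ± 0.28. The 3 Fos probe sets agreed in course (r = 0.93 to 0.97) but not in size of change.

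Junb, an AP-1 protein known to oppose Jun at some targets, rose in both of its probe sets. Probe set rc_AA891041_at read 213.0 in the young, 277.5 in the adult and 421.9 in the older control, and 920.1, 810.6 and 866.5 at 3 days. The controls differed with age more than the fractured samples did, and the 2 sets of values did not overlap. The log2 change was 1.57 ± 0.23 (adjusted p = 9.24e-05), and that of X54686cds_at was 1.28 ± 0.23 (adjusted p = 4.19e-04).

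Jun, the main partner of Fos, was less uniform. Its brightest probe set (rc_AI175959_at) read 975.8, 2042.5 and 380.8 in young, adult and older rats without fracture, a spread wider than the change itself. At 3 days it read 1746.0, 2164.3 and 1669.3, so the adult control lay among the fractured samples. The log2 change was 1.02 ± 0.33 (adjusted p = 0.0222), but without the older no-fracture array it was 0.46 and did not pass the test. In probe set rc_AA945867_at the adult control (310.7) lay just under the fractured samples (319.2 to 410.2) and the older control read 46.0. The log2 change was 1.21 ± 0.31 (adjusted p = 0.00514), and without the older no-fracture array it was 0.97 and still past the test. The other 2 Jun probe sets did not pass the test, X17163cds_s_at with a log2 difference of 0.51 ± 0.40 and rc_AA944014_at with 0.02 ± 0.32. Over the 18 arrays rc_AA944014_at correlated with the other Jun probe sets at r = 0.28 to 0.32 only, whereas the other 3 had r of 0.60 to 0.86 among themselves.

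Atf3, a stress-induced repressor of the ATF family, has 1 probe set (M63282_at). It read 209.3, 298.9 and 167.7 without fracture and 417.6, 514.7 and 446.3 at 3 days, with no overlap. The log2 change was 1.06 ± 0.32 (adjusted p = 0.0146). Without the older no-fracture array it was 0.72, and without the adult 3 day array 0.99, and the test was then not passed in either case.

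The 2 nuclear receptors behaved differently from each other. Nr4a3 (X86003_at) read 79.6, 74.0 and 88.4 without fracture, all under the floor, and 558.7, 416.8 and 345.1 at 3 days. Its log2 change over the floor was 2.11 ± 0.28 (adjusted p = 4.92e-05), which understates the rise. A second Nr4a3 probe set (rc_AI176710_at) read 30.3 to 47.3 without fracture and 132.5 to 159.6 at 3 days, and was too dim to be tested. The last one (rc_AI145834_at) stayed under 100 on every array, between 8.7 and 61.9, and gave no measurement of change.

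Nr4a1 (U17254_g_at) read 1430.9, 2433.8 and 601.3 without fracture and 1309.3, 1287.4 and 1117.3 at 3 days. The controls spanned the fractured samples on both sides, and the log2 difference was -0.05 ± 0.41 with a 95% interval of -0.93 to 0.82. The second Nr4a1 probe set (U17254_at) followed the first (r = 0.87) and differed by -0.18 ± 0.32. As with Jun, the adult control was the brightest and the older control the dimmest of the 3. Against the control of its own age, Nr4a1 at 3 days was at 0.529 of it in adult rats and 1.86-fold in older rats, each from 1 array over 1 array.

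The rise lasted through 2 weeks for most of the members. At 1 week 11 of 17 probe sets from 6 genes were higher and 0 lower, against 14.3% higher and 10.5% lower of all probe sets, with a median log2 change of 1.39; without the older 1 week array 10 were higher, and the changes of the brightest Egr1, Fos and Junb probe sets were 1.56, 1.52 and 1.53. At 2 weeks 10 of 17 from 5 genes were higher and 0 lower, against 12.8% and 8.27%, with a median of 1.00. Atf3 passed the test at 1 week (1.05 ± 0.32, adjusted p = 0.0259) but not at 2 weeks (0.59 ± 0.32). The 1 week result for Atf3 rests on the older rats: the signal was 355.5 and 329.1 in young and adult rats and 794.9 in older rats, and without the older 1 week array the log2 change was 0.67 and not past the test.

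Egr1 stayed far above its controls at 1 and 2 weeks. At 1 week its brightest probe set read 3901.5 and 3930.3 in young and adult rats and 7588.6 in older rats. At 2 weeks it read 5169.2, 5276.8 and 6861.0, above the controls in all 3 ages, with a log2 change of 2.05 ± 0.24 (adjusted p = 1.15e-04). In young and adult rats this probe set was lower at 1 week than at 2 weeks, while rc_AI176662_s_at in adult rats read 394.5 at 1 week and 356.2 at 2 weeks; with 1 array each this was not tested.

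Fos and Junb had lower means at the later times. Fos (X03347cds_g_at) averaged 1493.8, 1151.8, 840.2, 501.2 and 520.8 over the 3 ages at 3 days and 1, 2, 4 and 6 weeks, against 223.8 without fracture. Junb (rc_AA891041_at) averaged 865.7, 888.9, 587.6, 465.7 and 480.3, against 304.1. Neither gene passed the test at 4 or 6 weeks. The log2 change of this Fos probe set was 1.14 ± 0.37 at both times (adjusted p = 0.0837 and 0.0992). Nr4a3 (X86003_at) averaged 440.2, 261.7, 224.6, 144.0 and 190.2, and was past the test through 2 weeks.

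**Figure D2:**
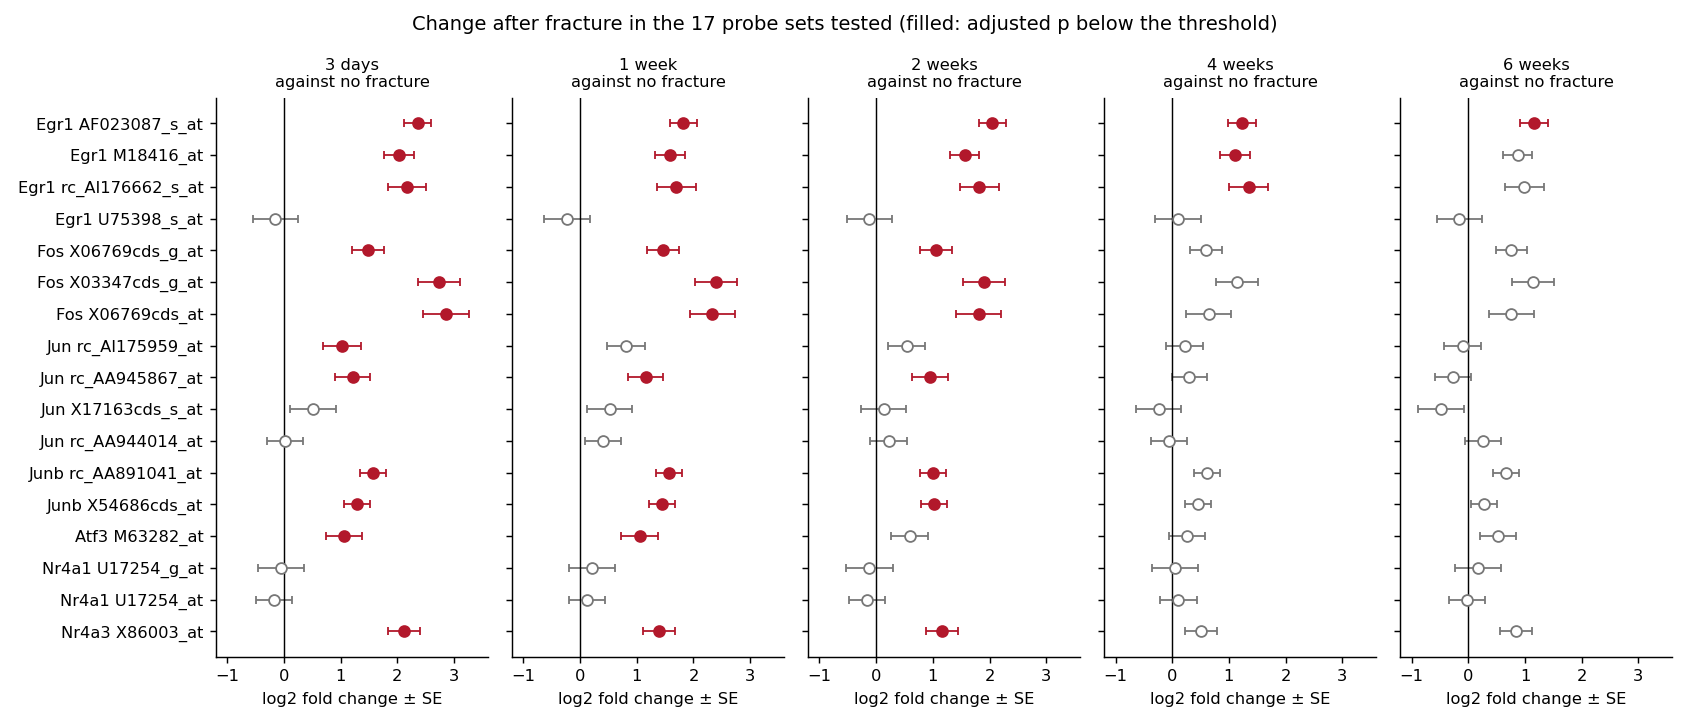
Log2 fold change against no fracture (x axis, error bars 1 SE) of the 17 probe sets tested, in 1 panel per time; filled points passed the test. The number of filled points falls from 12 at 3 days to 11, 10, 3 and 1 at 1, 2, 4 and 6 weeks.

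By 4 weeks Egr1 was the only member past the test. Its 3 responding probe sets were higher at 4 weeks, and no member was lower (all probe sets: 5.05% higher, 1.43% lower). The brightest read 3691.8, 2603.0 and 3524.4 in young, adult and older rats, a log2 change of 1.23 ± 0.24 (adjusted p = 0.00719). Of the 3 calls at 4 weeks 1, that of this probe set, was left without any one of the young 4 weeks, adult no-fracture, adult 4 weeks or older 4 weeks arrays, and 0 with only the arrays compared. At 6 weeks this probe set alone passed, with 2669.7, 2715.6 and 4041.9 and a log2 change of 1.16 ± 0.24 (adjusted p = 0.0171), against 3.19% of all probe sets higher and 1.2% lower; no member was lower. All 3 ages were still above their controls at 6 weeks, by 1.81-fold in young, 2.25-fold in adult and 2.71-fold in older rats. Without the young 6 weeks array 2 members passed at 6 weeks in place of 1, and the change of this probe set was 1.26. The 6 weeks result was lost without the adult or the older 6 weeks array, at log2 changes of 1.17 and 1.04. At an unadjusted p below 0.05, 5 of the 17 member probe sets differed from no fracture at 4 weeks and 7 at 6 weeks. Among all 4669 probe sets these counts were 931 and 923.

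From 3 days to 6 weeks 10 of the 17 probe sets fell and 0 rose, against 18.7% of all probe sets lower. The median log2 difference was -1.01 over the members and 0.02 over all probe sets. Fos (X06769cds_at) fell by 2.10 on the log2 scale (SE 0.40, adjusted p = 0.00159) and Egr1 (AF023087_s_at) by 1.21 (SE 0.24, adjusted p = 0.00212). Jun rc_AI175959_at read 701.5, 1043.8 and 845.9 at 6 weeks against 1746.0, 2164.3 and 1669.3 at 3 days, without overlap, a fall of 1.12 (SE 0.33, adjusted p = 0.0178). Atf3 dropped by 0.55 (SE 0.32) and did not pass the test. Without the young 6 weeks array 8 probe sets were still lower.

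Each age could be set against its own control, array by array. In young rats Egr1 (AF023087_s_at) was 5.59-fold over the control at 3 days and 1.81-fold at 6 weeks. In adult rats it was 6.41-fold and 2.25-fold, and in older rats 3.80-fold and 2.71-fold. Fos (X03347cds_g_at) ran from 7.45-fold at 3 days to 1.09-fold at 6 weeks in young rats, from 5.81-fold to 1.82-fold in adult rats and from 6.79-fold to 5.37-fold in older rats. The Fos signal at 6 weeks was 287.1, 469.2 and 806.0 in young, adult and older rats, and the older control was also the lowest of the 3. Nr4a1 stood over its control at all 5 times in older rats, by 1.43- to 3.49-fold (U17254_g_at), and under it at all 5 times in adult rats, at 0.393 to 0.816 of it. These opposite ratios come with the 601.3 and 2433.8 of the 2 controls, and were not tested.

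**Figure D3:**
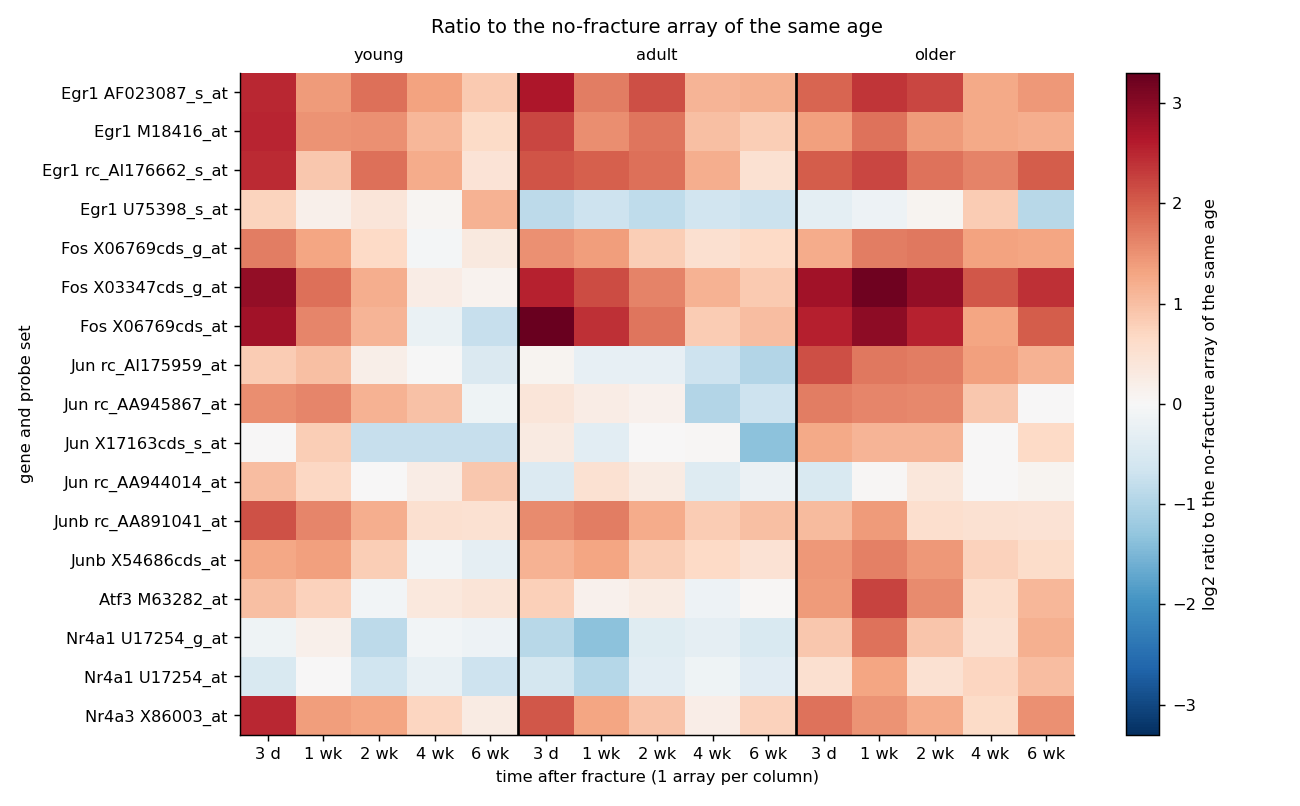
Log2 ratio of each array after fracture to the no-fracture array of its age, for the 17 probe sets tested (rows); red is above the control and blue below. In the 3 responding Egr1 and 2 of the 3 Fos rows the red is darkest at 3 days in young and adult rats and at 1 week in older rats; Fos X06769cds_g_at is about as dark at 1 and 2 weeks in older rats (1.68 and 1.73), the fourth Egr1 row does not follow, and Nr4a1 is red in the older and blue in the adult columns.

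Over the 5 times after fracture together, no member differed between ages after adjustment. Older against young gave 0 members (all probe sets: 0.15%), older against adult 0 (3.73%) and adult against young 0 (0%). At an unadjusted p below 0.05, 5, 3 and 4 of the 17 member probe sets differed. Among all 4669 probe sets these counts were 971, 1213 and 618. Junb (rc_AA891041_at) came nearest, at 757.1 ± 229.2 in older and 534.7 ± 260.6 in young rats (SD, n = 5), a log2 difference of 0.59 ± 0.17 (adjusted p = 0.0858), higher in 4 of 5 times. Atf3 was higher in older than young rats by 0.57 ± 0.23 (adjusted p = 0.174), again in 4 of 5 times. Egr1 (AF023087_s_at) differed by 0.27 ± 0.19 between older and young rats, with a 95% interval of -0.14 to 0.68.

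These counts depended on single arrays, and members gained calls only without the older or the young 3 day array. Without the older 3 day array, 4 probe sets were higher in older than young rats: Junb rc_AA891041_at by 0.68 ± 0.18 and all 3 of Fos by 0.58 ± 0.17 to 0.94 ± 0.23 (adjusted p = 0.0161 to 0.0489). The 3 responding Egr1 probe sets were then higher in older than adult rats, by 0.58 ± 0.16 to 0.89 ± 0.27 (adjusted p = 0.0178 to 0.0478). Without the young 3 day array, Fos (X03347cds_g_at, 0.89 ± 0.20) and Junb (rc_AA891041_at, 0.75 ± 0.16) were higher in older than young rats. Of all 4669 probe sets, 7 differed between older and young rats with all arrays. Without the older 3 day array 457 did, and without the young 3 day array 185. Between older and adult rats 174 differed with all arrays and 640 without the older 3 day array. Without the adult 3 day array 600 did, with 0 members among them. Without any one of the adult or older arrays of 1, 2, 4 or 6 weeks 0 did. Among the ages at 3 days, all 3 Fos probe sets and 2 of the 3 responding Egr1 probe sets lay lowest on the older array: Egr1 AF023087_s_at read 5660.2 there against 8233.2 and 7736.5, and Fos X03347cds_g_at 1020.1 against 1964.1 and 1497.3.

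At 1 and 2 weeks together, 0 members differed between older and young rats (0.514% of all probe sets). Atf3 had the largest difference, 647.1 ± 209.0 against 276.8 ± 111.3 (SD, n = 2), or 1.25 ± 0.30 on the log2 scale (adjusted p = 0.107). Fos (X03347cds_g_at) differed by 0.73 ± 0.25 and Egr1 (AF023087_s_at) by 0.68 ± 0.24, with adjusted p of 0.234 and 0.248. At an unadjusted p below 0.05, 4 of the 17 member probe sets differed, against 620 of all 4669 probe sets.

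At 4 and 6 weeks 2 probe sets, both of Fos, were higher in older than young rats (1.88% of all probe sets). Fos X03347cds_g_at read 626.4 and 806.0 in older rats at 4 and 6 weeks against 310.8 and 287.1 in young rats, a log2 difference of 1.25 ± 0.25 (adjusted p = 0.0361). Fos X06769cds_at read 246.4 and 403.8 against 145.5 and 26.6, a difference of 1.39 ± 0.32 (adjusted p = 0.0491). The third Fos probe set read 2205.0 and 2163.7 against 1051.2 and 1383.1 without passing the test (0.86 ± 0.24, adjusted p = 0.0776). Junb showed values of the same kind, 597.1 and 588.0 against 305.9 and 300.7 (0.97 ± 0.24, adjusted p = 0.0568). Both calls were lost without the young 6 weeks array, at 1.17 and 0.89. Of the 12 fits that each left out 1 array, 10 lost the first call and 9 the second, each with the same direction.

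**Figure D4:**
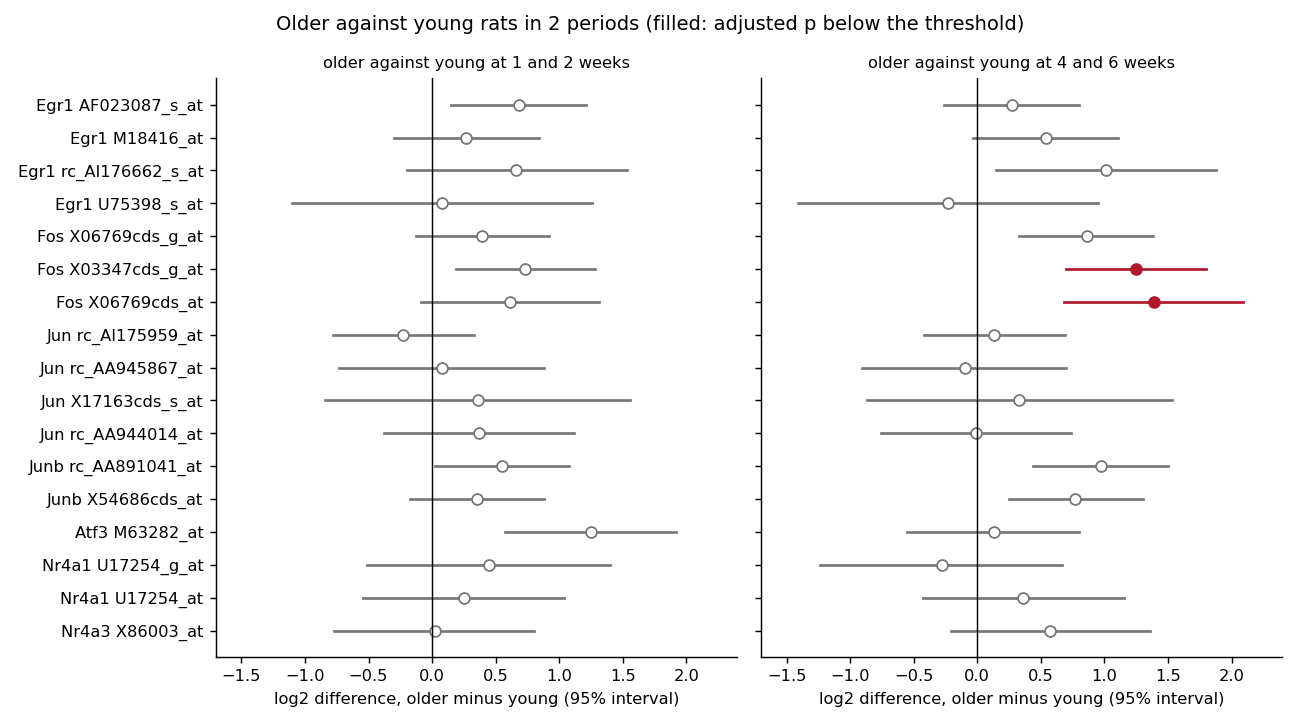
Log2 difference of older minus young rats (points) with its 95% interval (lines) for the 17 probe sets tested, at 1 and 2 weeks (left) and at 4 and 6 weeks (right), 2 arrays per age and period; filled points passed the test. Only 2 Fos probe sets in the right panel are filled, with intervals from 0.70 to 1.80 and from 0.68 to 2.09.

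Cartilage genes moved with this late difference between older and young rats: all 4 of the list (Acan, Col10a1, Col2a1 and Comp) were higher in older rats at 4 and 6 weeks, with a median log2 difference of 3.06, and the summed cartilage signal ran from 1049 to 10765 over the 3 arrays of 4 weeks. Of 12 skeletal muscle genes, 3 were lower in older rats in the same comparison, and of 6 neutrophil genes 1 was higher and 1 lower. The older arrays of 4 and 6 weeks had the highest median signals of all arrays, 182.6 and 174.6, against 147.2 and 155.3 on the young ones. On the first component they lay at -1.1 and -4.1, and the young ones at -18.7 and -34.7. With array medians set equal, 0 member probe sets passed in this comparison. The part of the marker genes and of the place on the first component in the Fos result was not tested.

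The signal of Egr1, Fos and Atf3 peaked later in older than in young and adult rats; each peak rests on 1 array and was not tested. The 3 responding Egr1 probe sets and 2 of 3 Fos probe sets were highest at 3 days in young and adult rats and at 1 week in older rats; Fos X06769cds_g_at was highest at 2 weeks in the latter (2907.0). From 3 days to 1 week, Egr1 (AF023087_s_at) changed from 8233.2 to 3901.5 in young and from 7736.5 to 3930.3 in adult rats, but from 5660.2 to 7588.6 in older rats. Atf3 changed from 417.6 to 355.5 and from 514.7 to 329.1 in young and adult rats, and from 446.3 to 794.9 in older rats. Nr4a3 did not share this pattern in its brightest probe set (X86003_at), which was highest at 3 days at every age, while the dimmer rc_AI176710_at read 159.6 at 3 days and 399.7 at 1 week in older rats. In Junb, X54686cds_at was highest at 1 week at all 3 ages, and rc_AA891041_at at 3 days in young and at 1 week in adult and older rats. Nor was the later peak seen in Jun, whose brightest probe set was highest at 3 days in adult and older rats and at 1 week in young rats.

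Over the members tested, 13 of 17 were higher at 1 week than at 3 days in older rats, against 6 in young and 4 in adult rats. Over all probe sets tested these shares were 49.2%, 45.6% and 49.0%. Among the 12 members that rose at 3 days, the counts were 9 in older, 3 in young and 2 in adult rats; among all 1144 probe sets that rose then, the shares were 36.2%, 10.3% and 18.1%. The older 1 week array thus kept more of the 3 day rise among all probe sets tested as well, as its place on the first component showed. A fit that set the change from 3 days to 1 week in older rats against that in the others, chosen after the values were seen, called 0 members and 0% of all probe sets (lowest adjusted p = 1), and 181 of all probe sets had an unadjusted p below 0.05. The log2 difference was 1.45 ± 0.38 for Egr1 AF023087_s_at and 1.28 ± 0.47 for M18416_at, the 2 members below an unadjusted p of 0.05.

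**Figure D5:**
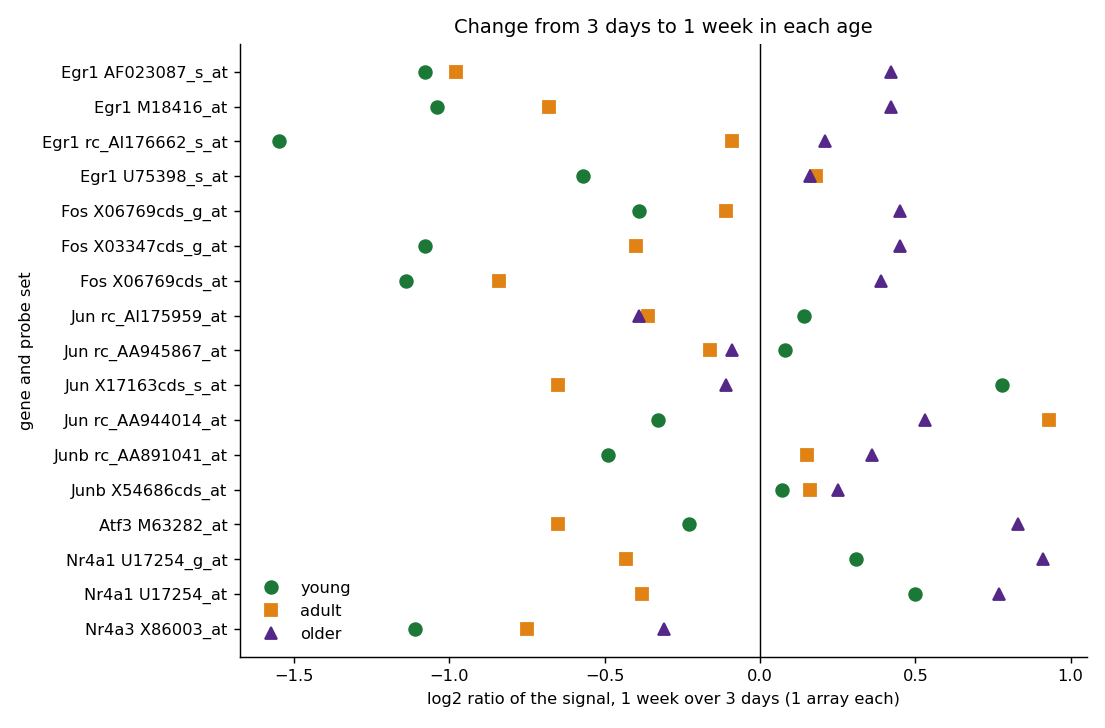
Log2 ratio of the signal at 1 week over 3 days (x axis) for the 17 probe sets tested, with 1 point per age, each from 1 array over 1 array. The older rats' points lie right of 0 for 13 probe sets, among them all of Egr1, Fos, Junb, Atf3 and Nr4a1.

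The members were also compared with each other over the 18 arrays, as a description, by the brightest probe set of each gene. Egr1 and Nr4a3 had the highest Pearson's r (0.89), followed by Fos and Junb (0.85), Fos and Nr4a3 (0.81) and Junb and Nr4a3 (0.81). Egr1 and Fos had an r of 0.79. Nr4a1 stood apart from them, with r of -0.06 to 0.13 against Egr1, Fos, Junb and Nr4a3, and 0.52 against Jun. The arrays share the time course, so any gene that rises early and then falls correlates with them.

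Among 3860 probe sets compared, those most like Egr1 (AF023087_s_at) in course over the 18 arrays were Lxn, Slc41a2 and Papss2 (r = 0.95 each), then Plat and Pdlim4 (0.94 each). Papss2, which makes the sulfate donor for proteoglycans, averaged 155.1 without fracture, 1582.0 at 3 days and 516.3 at 6 weeks. Plat, tissue plasminogen activator, averaged 120.0, 817.0 and 292.5 at these times. The probe sets nearest to the mean course of the 7 genes were Copz2 (0.95), Lgals1 and Pdlim4 (0.94 each), then Cavin3 and Fzd2 (0.93 each). Lgals1, the lectin galectin-1, averaged 3819.9, 16389.8 and 6940.5.

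Few of the nearest relatives of the AP-1 members passed the test. Of 10 AP-1 and ATF/CREB relatives on the array 6 were tested. At 3 days none was higher and 1 was lower, against 24.5% and 19.7% of all probe sets tested. This was Mafk, a small Maf protein, which fell by 0.93 (SE 0.20) on the log2 scale, from a mean signal of 655.2 to 342.5 (adjusted p = 0.00149). Maf was higher at 1 week (0.77 ± 0.20) and 2 weeks (0.82 ± 0.20). The dim ones, Jund, Fosl1, Atf2 and Creb1, were not tested: Fosl1 read 15.4 to 105.1 and Jund 12.1 to 98.2.

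Among other early response transcription factors, 8 of 19 genes tested were higher at 3 days and 1 was lower, with a median log2 change of 0.31. Of all probe sets tested, 24.5% were higher and 19.7% lower at that time. Id3, an inhibitor of basic helix-loop-helix factors, rose by 1.86 ± 0.29 (adjusted p = 1.59e-04), Klf4 by 1.43 ± 0.23, Klf6 by 1.25 ± 0.32 and Myc by 1.13 ± 0.29. Egr4, a relative of Egr1, was the one that fell, by 1.09 (SE 0.31). At 1, 2, 4 and 6 weeks 6, 5, 1 and 0 genes of this list were higher, against 14.3%, 12.8%, 5.05% and 3.19% of all probe sets tested. Id3 was the one at 4 weeks (adjusted p = 0.0059). Egr2 and Egr3, the other relatives of Egr1, were too dim to be tested, at 39.9 to 194.7 and 9.3 to 31.9.

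Of 24 other early response genes tested, 10 were higher and 1 lower at 3 days, against 24.5% and 19.7% of all probe sets tested. The median log2 change was 0.34. Ptgs2, the inducible cyclooxygenase, rose by 3.47 ± 0.57 (adjusted p = 2.58e-04), Errfi1, a feedback inhibitor of the EGF receptor, by 3.03 ± 0.37 (adjusted p = 3.17e-05), Ccn1, a matricellular protein, by 2.37 ± 0.46 and Rhob, a small GTPase, by 1.55 ± 0.22. Homer1, a synaptic scaffold, fell by 1.04 (SE 0.27). Errfi1 was also higher at 1, 2, 4 and 6 weeks, at 2.61 ± 0.37, 2.41 ± 0.37, 2.13 ± 0.37 and 2.03 ± 0.37, as Egr1 was among the members. In the age comparisons 2 calls fell in this list: Ptgs2 was higher in older than young rats at 1 and 2 weeks by 2.82 ± 0.38 (adjusted p = 0.0255), and Bdnf, a neurotrophin, was lower in older than adult rats after fracture by 1.11 (SE 0.2, adjusted p = 0.0323). The former comparison called 24 of all probe sets tested, and 0 without the older 1 week or the older 2 weeks array. The latter called 174, and 0 without any one of the adult or older arrays of 1, 2, 4 or 6 weeks.

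Among 7 upstream kinases tested, none was higher at 3 days and 2 were lower, against 24.5% and 19.7% of all probe sets tested. Mapk14, the stress kinase p38 alpha, was lower by 1.24 (SE 0.26, adjusted p = 0.00172), and Prkaca, a catalytic subunit of protein kinase A, by 1.11 (SE 0.28). Map2k2, a kinase that acts on ERK, was lower in older than adult rats after fracture by 0.61 (SE 0.14, adjusted p = 0.0382). The Map2k2 call was lost without any one of the adult or older arrays of 1, 2, 4 or 6 weeks. The values of these kinases are mRNA levels and say nothing of kinase activity.

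Markers of several cell types moved with the 3 day result, when 24.5% of all probe sets tested were higher and 19.7% lower. The summed signal of 4 erythroid genes lay between 50891 and 77487 without fracture and between 5212 and 11774 at 3 days, and all 4 were lower. That of 6 neutrophil genes lay between 44097 and 82590 and then between 1263 and 16567, with 5 lower. For 12 skeletal muscle genes it lay between 119140 and 270631 and then between 53897 and 84429, with 11 lower. The 4 macrophage genes on the array went the other way, from between 2021 and 3176 to between 5078 and 6927, with 2 of 3 tested higher, and so did 2 of 3 endothelial genes tested, 2 of 4 cartilage genes and 4 of 6 bone matrix genes, of which 1 was lower. The part of these shifts in the rise of the members was not tested. At 6 weeks, when Egr1 (AF023087_s_at) was 2.23-fold higher, 5 of 6 bone matrix genes were higher as well, with a median log2 change of 1.5. Of all probe sets tested, 3.19% were higher at 6 weeks. No gene of the other lists passed the test then, with median log2 differences of 1.31 for cartilage, -0.84 for erythroid, -0.94 for neutrophil, -0.05 for muscle, 0.42 for macrophage and 0.5 for endothelial genes.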

How the data were processed

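A total of 18 Affymetrix rat GeneChips were hybridised with biotin-labelled cRNA. The deposited values are signal intensities that the authors computed with Affymetrix Microarray Suite and scaled to an average of 500 on each array; the 2% trimmed means in the file lay between 500.6 and 500.9. Signals are on a linear scale, no detection calls were used here, and the precision is limited by the number of arrays. On each array 37.2% to 43.3% of the signals lay under 100, where differences are mostly noise.

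Probe sets were named through GEO's platform annotation with symbols updated from RefSeq: of 8799 probe sets 7018 had 1 symbol, 308 several and 1473 none. No column of the files was left unused. Signals under 100 were set to 100 and log2 was taken, and a probe set entered the tests if 3 arrays or more read at least 200; the 59 control probe sets were left out. Times were compared in a fit of the 18 arrays on time plus age, ages over the 15 arrays after fracture with the same terms, and ages at 1 and 2 or at 4 and 6 weeks over 12 arrays with age and time within each period. The tests were made with limma 3.58.1 under R 4.3.3, by lmFit followed by eBayes with its intensity trend, two-sided, with Benjamini-Hochberg adjustment over all 4669 probe sets and a threshold of 0.05. Fold changes are on the floored log2 scale and understate changes of dim probe sets. With age as a term, the spread behind a time comparison is what the ages do not share in their course over time. All 18 labels carry the words Series 1, but they do not say whether the rats of different arrays shared a batch. The files name no scan date or other batch.

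Every probe set of the 7 genes is named; genes of the other lists were named when past the test, up to 4 a list and comparison by size of change. The members and lists were chosen with earlier results of these data known. Each array was 1 sample, so p-values measure the spread between ages or times. The tests were also run on simulated data with the spread of these arrays, in which 200 of 4669 genes were changed. There the 3 day comparison recovered 39% of changes of log2 size 1 and 83% of size 2, with 8.96% of its calls false. On the real arrays this comparison called 2062 probe sets, so the recovery there can differ. In the simulation the comparison of older and young rats at 4 and 6 weeks recovered 11% and 67%, with 4.88% of its calls false. Alternatives were the floor, the filter, the normalization, 1 probe set per gene, the two-sample test that the methods name, and leaving out arrays or ages. Figures were drawn with matplotlib 3.10.9 in Python 3.11.15.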

Additional observations from a re-analysis of the deposited data

Results flagged for a closer look

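The dim Nr4a3 probe set rc_AI176710_at, which was in no test, read 399.7 on the older 1 week array, above the 30.3 to 47.3 of the 3 no-fracture arrays. It is the single array on which this probe set reached 200. The young and adult arrays of 1 week read 59.6 and 72.6, and the other Nr4a3 probe sets read 277.6 (X86003_at) and 52.7 (rc_AI145834_at) on the older 1 week array, the former highest at 3 days in older rats and the latter under the floor of 100 on every array. Over the 51 groups of 5 times of 1 age, 0 held a time set apart from the other 4 by a gap above Dixon's critical value of 0.71, where chance alone flags about 1 in 20.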

How the results depend on the processing

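No member change that passed the main test reversed direction in any alternative run that tested it. Changes that had not passed were not checked for this. The limits below concern which changes passed the test. The rise at 3 days gave 12 probe sets with either other floor and either other normalization, and 11 without a filter. The rise at 1 week gave 7 of the 10 member probe sets that were tested with a filter at 500. With 1 probe set per gene 7 members were tested, and the counts at 3 days and 1, 2 and 4 weeks were 6, 5, 4 and 1. The fall from 3 days to 6 weeks then gave 4, and older against young at 4 and 6 weeks gave 0. The two-sample test named in the methods, adjusted, gave 5 at 3 days and 0 in each other comparison. Unadjusted it gave 10, 9, 9, 4 and 2 at the 5 times. It gave 10 for the fall from 3 days to 6 weeks and 4 for the late difference between older and young rats. Over all probe sets the unadjusted counts were 1656, 832, 819, 467 and 323 at the 5 times. They were 1694 between 3 days and 6 weeks and 469 in the late comparison. With only the arrays compared, 6 passed at 2 weeks, 0 at 4 weeks, 0 at 6 weeks and 0 at 4 and 6 weeks between the ages. Without a filter 1 passed at 4 weeks and 0 at 6 weeks; with a floor of 20, 2 passed at 6 weeks. The late difference between older and young rats fell from 2 probe sets to 1 with a floor of 20 or quantile normalization and to 0 with a floor of 200, no filter or equal medians. Leaving out 1 array or 1 age gave 9 to 12 probe sets at 3 days, 8 to 12 at 1 week, 2 to 11 at 2 weeks, 0 to 4 at 4 weeks, 0 to 3 at 6 weeks and 2 to 12 for 6 weeks against 3 days. The lowest counts at 2 weeks and for 6 weeks against 3 days came without the adult arrays, and without the young arrays the latter count was 3. At 4 weeks the count was 1 without the older arrays and without each of the young 4 weeks, adult no-fracture, adult 4 weeks and older 4 weeks arrays. Older against young gave 0 to 4 after fracture, 0 at 1 and 2 weeks and 0 to 4 at 4 and 6 weeks; older against adult gave 0 to 3 and adult against young 0. The causes were not tested. Age was a term in each comparison of times, which sets the arrays of 1 age against each other, and no further pairing is given by the labels.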
